A study of Mus musculus with 10 samples.

Results

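The genes described here are named as protein subunits of the mitochondrial ribosome, 48 of the large subunit (symbols starting with Mrpl) and 29 of the small subunit (Mrps). The split follows the symbols, although Mrps18a, Mrps30 and Mrps36 belong elsewhere, as described below. They are all genes of the array whose single annotated symbol starts with Mrpl or Mrps and a digit. Each gene is read from 1 probe set, the brightest by its mean over the 10 arrays, and they are 77 of 19938 named genes. RNA came from B220+ cells sorted out of CFU-PreB colonies, clonal colonies of B cell precursors grown from mouse bone marrow in methylcellulose for 7 days. Marrow of 5 Hspa9+/+ wild type littermates and of 5 Hspa9+/- (heterozygous) mice was cultured separately, and each mouse gave 1 Mouse Gene 1.0 ST array. Hspa9 encodes mortalin, a chaperone of the mitochondrial matrix. The heterozygous mice keep 1 intact allele, no other allele or agent is named, and the labels used here give neither the age of the mice nor how the allele was disrupted. Arrays are named by genotype and by the replicate number of the label. Values are the authors' RMA expression levels on the log2 scale, and a difference is the heterozygous mean less the wild type mean, over n = 5 mice of each genotype.

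Mitochondria keep a ribosome of their own, which translates the few proteins encoded by mitochondrial DNA, all of them subunits of the oxidative phosphorylation complexes. Its ribosomal RNA is transcribed from mitochondrial DNA, while every protein of it is encoded in the nucleus, made in the cytosol and imported into the matrix. Some of these proteins descend from those of the bacterial ribosome and others exist only in mitochondria.

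No mitochondrial ribosomal protein gene differed between the genotypes past the adjusted threshold, and most point estimates were small and higher in heterozygous cells. The median difference was 0.08 over the large subunit, with 35 of 48 genes higher, and 0.12 over the small subunit, with 23 of 29 higher. Over all 14953 genes tested the median was 0.058 with 61.3% higher, and over the genes brighter than the median row it was 0.0175 with 52.8% higher. The direction depended on the model: with the mean of B lineage markers, lower in heterozygous cells, as a covariate, the medians were -0.08 and -0.064, with 12 of 48 and 11 of 29 higher. A much wider variation ran across single mice of both genotypes: 70 of the 77 genes were above their own median in wild type 2 and 70 in heterozygous 4, against 7 in heterozygous 3.

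The start regions of a few members are shown first because many of these genes share a short stretch of DNA with a neighbour. RefSeq promoter windows of assembly GRCm38.p6, from 250 bases before to 50 after the annotated start, were at hand for 68 members. Of these, 26 (38.2%) had a gene of the opposite strand starting within 1000 bases upstream, against 17.2% of 11781 tested genes with a window. The median distance between the start sites of such pairs was 129.5 bases. Mrpl46, of the large subunit, and Mrps11, of the small subunit, are the only such pair in which both genes are members. The whole stretch between their starts is chr7:78783090-78783130, minus strand, 41 bases:
Mrpl46 to Mrps11: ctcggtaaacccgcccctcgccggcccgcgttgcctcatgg

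Of the other pairs, 4 are shown as examples, chosen for their neighbours. Each stretch runs up to the member's start and is written on its strand. Capitals mark matches to CCGGAAGT, a motif of ETS factors such as GABP, and to GCGCATGC, the motif of NRF1. Both factors are known as regulators of nuclear genes for mitochondrial proteins. Mrpl43 is paired with Twnk, the mitochondrial DNA helicase, at chr19:45006443-45006557, minus strand. Mrps27 is paired with Ptcd2 at chr13:99344679-99344785, plus strand. Mrps12, a homologue of the bacterial decoding protein S12, is paired with Sars2, the mitochondrial seryl-tRNA synthetase, at chr7:28741822-28741967, minus strand. Mrpl32 is paired with the proteasome gene Psma2 at chr13:14613038-14613241, minus strand.
Mrpl43 (next to Twnk): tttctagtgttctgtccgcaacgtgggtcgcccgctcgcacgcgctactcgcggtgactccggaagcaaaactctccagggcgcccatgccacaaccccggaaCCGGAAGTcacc
Mrps27 (next to Ptcd2): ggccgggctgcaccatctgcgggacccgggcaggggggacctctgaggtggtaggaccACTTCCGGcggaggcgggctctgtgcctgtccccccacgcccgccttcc
Mrps12 (next to Sars2): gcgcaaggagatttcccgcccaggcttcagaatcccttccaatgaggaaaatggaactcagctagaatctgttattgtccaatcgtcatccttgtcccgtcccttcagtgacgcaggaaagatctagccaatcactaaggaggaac
Mrpl32 (next to Psma2): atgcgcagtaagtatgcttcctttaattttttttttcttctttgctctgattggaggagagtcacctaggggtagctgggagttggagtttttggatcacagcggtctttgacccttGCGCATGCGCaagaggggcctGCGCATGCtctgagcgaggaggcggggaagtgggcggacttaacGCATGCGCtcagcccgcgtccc

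The Mrpl32 stretch holds 4 matches to the NRF1 letters over both strands, of which an overlapping pair lies in the first run of capitals. The Mrpl43 match ends 5 bases before the start, and the Mrps27 match is read on the opposite strand. Over the 300-base windows, CCGGAAGT on either strand stood in 11 of 68 members (16.2%) and in 7.01% of the 11781 genes. GCGCATGC stood in 8 members (11.8%) and in 4.69% of genes. AAGATGGC, a motif of YY1, stood in 12 members (17.6%) and in 4.10% of genes. Mrps11, Mrps12, Mrps27 and Mrpl32 are among these 12, each with its match outside the stretch shown. At least 1 of these motifs stood in 28 members (41.2%) and in 14.8% of genes, with 18 of 42 in the large and 10 of 26 in the small subunit. The same share was 36.7% of 30 genes of respiratory complex I and 21.4% of 42 cytosolic ribosomal protein genes. These are matches of letters and not measured binding.

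By genotype, members with and without a motif overlapped widely. The 28 with at least 1 motif had a median difference of 0.051, 19 of them higher, and the 40 with none had 0.10, 30 of them higher. The 11 with the ETS letters had a median of 0.0023, with 6 higher, the 8 with the NRF1 letters 0.056, with 6 higher, and the 12 with the YY1 letters 0.075, with 9 higher. The members without each had medians of 0.10, 0.079 and 0.071. Neighbours across a shared start region did not keep a common direction throughout. Of 24 tested neighbours, 14 had the sign of the member and 10 did not, with Mrpl46 and Mrps11 counted from both sides. Both genes were higher in 11 of these and both lower in 3. The share of equal signs among genes that are not neighbours was not computed. Mrpl46 and Mrps11 differed by 0.07 and 0.20. Mrps12 differed by 0.17 and its neighbour Sars2 by -0.25, with adjusted p = 0.567 for Sars2 in limma. Of the 24 neighbours, 2 had an unadjusted p under 0.05, Ptcd2 at -0.22 and 4930473A02Rik, the neighbour of Mrps26, at -0.31, against 11.0% of all genes over both directions. Neither passed the adjusted threshold.

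All 77 members were brighter than the filter on dim rows, the 25th percentile of row means, so each was tested. With limma's moderated test and Benjamini-Hochberg adjustment over all genes, 0 of 77 passed 0.05, and so did 0 of the 14953 genes (0%). With array weights limma called 137 genes, 0 of them members. The smallest adjusted p of a member was 0.406. At an unadjusted p under 0.05, 2 members were higher in heterozygous cells, 1 in each subunit, which is under the background share of 6.79% of all genes, and 0 were lower, against 4.25%. The arrays of the genotypes did not overlap for 0 members, against 2.28% of all genes. The 95% interval of the difference stayed within 2-fold either way for 77 of 77 members and within 1.5-fold for 66. In sorted bulk cells, fewer cells of a type and less RNA per cell cannot be told apart.

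**Figure D1:**
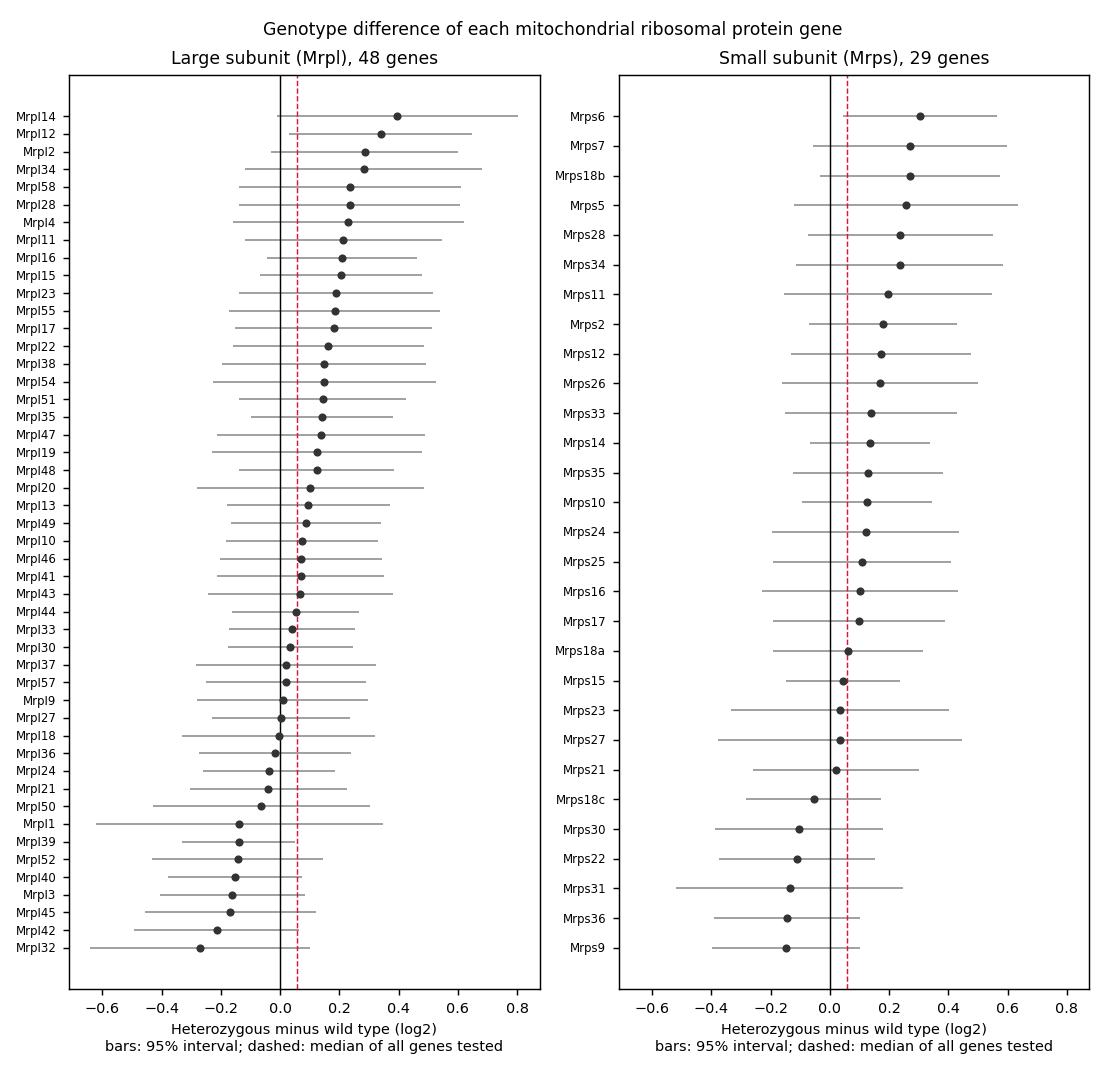
Heterozygous minus wild type difference (log2) of each gene, large subunit on the left and small subunit on the right, ordered by size, with the 95% interval of limma as a bar. The dashed line is the median of all genes tested, 0.058; the points run from -0.27 (Mrpl32) to 0.40 (Mrpl14), and the lowest and highest interval bounds are -0.64 and 0.80.

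In the large subunit, the higher genes of smallest p were Mrpl12, Mrpl14, Mrpl2, Mrpl16 and Mrpl15, each a homologue of a bacterial ribosomal protein. Mrpl12 forms the flexible stalk that recruits translation factors. Its values were 9.60, 10.16, 9.75, 9.61 and 9.81 in wild type 1 to 5 and 9.96, 9.99, 9.95, 10.33 and 10.41 in heterozygous 1 to 5. Heterozygous 4 and 5 were above every wild type array, and wild type 2 was above the other 3 heterozygous arrays. The difference was 0.34 (SE 0.141), or 126% of the wild type level, with adjusted p = 0.432 in limma. The 250 bases before its start, chr11:120484387-120484636, plus strand, hold none of the 3 motifs and are shown as the promoter of the large subunit gene of smallest p:
Mrpl12: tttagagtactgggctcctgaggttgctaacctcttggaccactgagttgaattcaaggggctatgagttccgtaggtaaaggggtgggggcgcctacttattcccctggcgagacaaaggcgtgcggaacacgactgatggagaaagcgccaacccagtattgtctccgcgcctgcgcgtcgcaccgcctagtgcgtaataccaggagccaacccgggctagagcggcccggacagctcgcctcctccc

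Mrpl14, at the face of the large subunit that meets the small subunit, had the largest difference of all members, 0.40 (SE 0.185, adjusted p = 0.461 in limma). It also had the widest range over the arrays, 1.21. Its values were 8.91, 9.15, 8.42, 8.21 and 8.70 in wild type and 8.82, 9.14, 8.84, 9.14 and 9.41 in heterozygous arrays. Wild type 3 and 4 were lowest, while wild type 1 and 2 lay within the heterozygous values. Mrpl2, a homologue of a protein near the peptidyl transferase centre, had 8.55, 8.68, 8.36, 8.22 and 8.60 in wild type against 8.55, 8.63, 8.56, 8.99 and 9.12 in heterozygous arrays. Its difference of 0.29 came with heterozygous 4 and 5 above all other arrays and the other 3 heterozygous arrays among the wild type values. Mrpl16 differed by 0.21 and Mrpl15 by 0.20.

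On the lower side of the large subunit stood Mrpl42, Mrpl39 and Mrpl32. Mrpl42, found only in mitochondria, had 9.98, 10.18, 10.52, 10.26 and 10.17 in wild type and 10.14, 10.07, 9.72, 10.20 and 9.91 in heterozygous arrays. The genotypes overlapped, and the difference was -0.21 (SE 0.127) with adjusted p = 0.524 in limma. Mrpl39, related in sequence to threonyl-tRNA synthetase, differed by -0.14 and had the smallest spread within genotypes of the large subunit, an SD of 0.0944. Mrpl32 is known to be cut to its mature form by the m-AAA protease of the inner membrane. Its values were 8.30, 8.43, 8.21, 8.29 and 8.35 in wild type and 8.46, 8.29, 7.97, 8.08 and 7.43 in heterozygous arrays. Heterozygous 5 was far below every other array, and the difference of -0.27 (SE 0.168, adjusted p = 0.539 in limma) was -0.12 without it. Mrpl1, of the mobile L1 stalk, had the largest SD within genotypes, 0.386, and a difference of -0.14. Its lowest array was again heterozygous 5, at 6.61, and without that array its difference was 0.0058.

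In the small subunit, the higher genes of smallest p were Mrps6, Mrps18b, Mrps7, Mrps28 and Mrps2. Mrps6, a homologue of bacterial S6, had the smallest p of all members. Its values were 8.33, 8.57, 8.19, 8.19 and 8.17 in wild type and 8.43, 8.75, 8.40, 8.81 and 8.60 in heterozygous arrays. Wild type 2 lay among the heterozygous arrays, and the other 4 wild type arrays lay below all of them. The difference was 0.31 (SE 0.118), or 124% of the wild type level, with adjusted p = 0.406 in limma. The 250 bases before its start, chr16:92058086-92058335, plus strand, also hold none of the 3 motifs and are shown for the same reason:
Mrps6: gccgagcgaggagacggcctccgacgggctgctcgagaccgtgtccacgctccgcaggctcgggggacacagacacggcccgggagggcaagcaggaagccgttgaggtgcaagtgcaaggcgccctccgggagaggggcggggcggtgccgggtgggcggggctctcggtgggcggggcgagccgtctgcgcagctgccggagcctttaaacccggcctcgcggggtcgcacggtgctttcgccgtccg

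Mrps18b, a member of the Mrps18 family of homologues of bacterial S18, had 8.49, 8.86, 8.77, 8.56 and 8.48 in wild type against 8.84, 8.73, 8.61, 9.17 and 9.17 in heterozygous arrays. Heterozygous 4 and 5 were the highest, and the difference was 0.27 with adjusted p = 0.492 in limma. Mrps7, of the head of the small subunit, also differed by 0.27, with adjusted p = 0.503. Mrps28 differed by 0.24 and Mrps2 by 0.18. The lower genes of smallest p were Mrps9, Mrps36 and Mrps22. Mrps9, a homologue of bacterial S9, had 8.24, 8.55, 8.67, 8.65 and 8.67 in wild type and 8.63, 8.28, 8.41, 8.44 and 8.29 in heterozygous arrays. Wild type 1 was the lowest of all arrays, each of the other wild type arrays was above at least 4 of the 5 heterozygous ones, and the difference was -0.15 (adjusted p = 0.589 in limma). Mrps36 differed by -0.15 and Mrps22 by -0.11. Mrps36 carries a ribosomal name but is known as a part of the 2-oxoglutarate dehydrogenase complex. Mrps27, a pentatricopeptide repeat protein, and Mrps31 had the largest SD within genotypes, 0.322 and 0.295, with differences of 0.033 and -0.14. Mrps15 had the smallest, 0.0964, with a difference of 0.044.

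**Figure D2:**
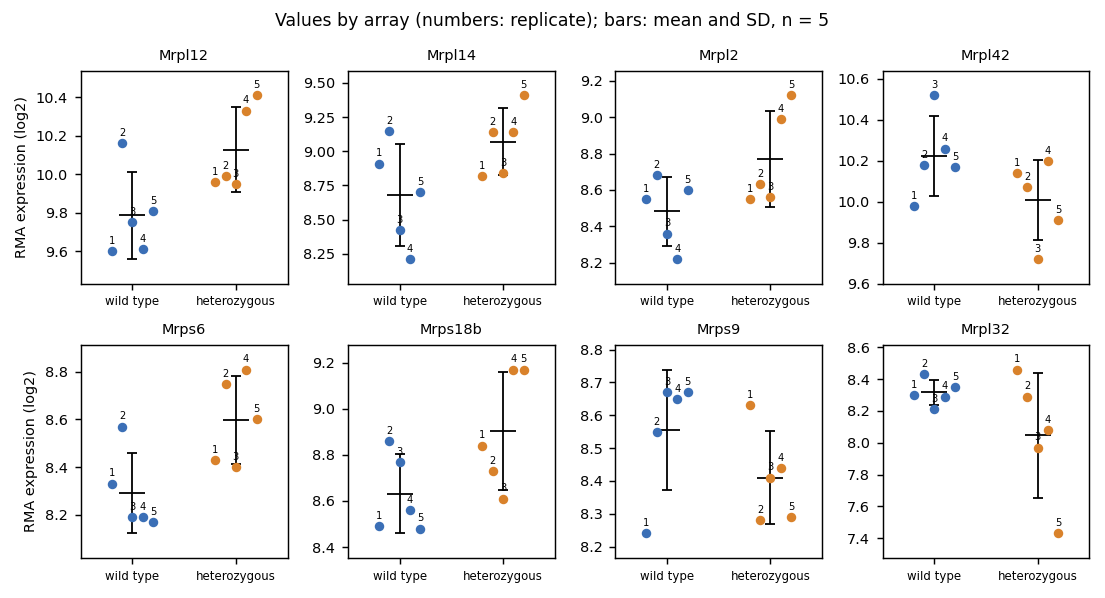
RMA level (log2) of 8 members in each array, wild type on the left and heterozygous on the right of each panel, with the replicate number beside each point and mean and SD (n = 5) as bars; each panel has its own vertical scale. Heterozygous 4 and 5 are the highest arrays of Mrpl12, Mrpl2 and Mrps18b, heterozygous 5 at 7.43 is the lowest of Mrpl32, and the genotypes overlap in every panel.

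Grouped by descent, read from the number in the symbol with 4 exceptions, 48 members were counted as homologues of bacterial ribosomal proteins. Another 28 were counted as mitochondria-specific, without a counterpart in the bacterial ribosome, and Mrps36 was in neither group. The homologues had a median difference of 0.13, with 39 of 48 higher, 23 of 30 in the large and 16 of 18 in the small subunit. The mitochondria-specific members had a median of 0.061, with 19 of 28 higher, 12 of 18 in the large and 7 of 10 in the small subunit. The difference between the groups was not tested. By place in the ribosome, the 3 stalk proteins Mrpl10, Mrpl11 and Mrpl12 were at 0.07, 0.21 and 0.34. The 4 proteins of the mRNA path and decoding site were at 0.18 (Mrps2), 0.26 (Mrps5), 0.17 (Mrps12) and 0.12 (Mrps24). Of 6 proteins around the exit of the nascent peptide tunnel, Mrpl22, Mrpl23 and Mrpl44 were higher by 0.16, 0.19 and 0.053, and Mrpl24, Mrpl39 and Mrpl45 were at -0.038, -0.14 and -0.17. Of 6 proteins of the central protuberance, Mrpl38, Mrpl46, Mrpl48 and Mrpl27 were between 0.0023 and 0.15, and Mrpl18 and Mrpl40 were at -0.0043 and -0.15. None of these values passed the adjusted threshold in limma. Structures place Mrps18a and Mrps30 in the large subunit despite their names, and they were at 0.062 and -0.10.

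For 8 members the array holds a second annotated probe set. The probe sets had the same sign for Mrpl23, Mrpl51, Mrps5, Mrps33 and Mrps36, and opposite signs for Mrpl27, Mrpl41 and Mrpl47. Mrpl47 differed by 0.14 on the brighter probe set, whose annotation lists no RefSeq transcript, and by -0.25 on the other. Mrpl41 gave 0.069 and -0.018, and Mrpl27 gave 0.0023 and -0.067. The sign of these 3 members therefore depends on which probe set is read. The brighter probe set had a mean of 10.01 against 7.39 for Mrpl41 and of 10.11 against 6.47 for Mrpl51. Whether each brighter probe set measures the gene it is annotated to was not tested.

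Across the arrays, most members were high or low in the same arrays, in both genotypes. The number of the 77 above their own median over 10 arrays was 22, 70, 26, 16 and 46 in wild type 1 to 5. It was 37, 36, 7, 70 and 55 in heterozygous 1 to 5. Wild type 2 and heterozygous 4 were thus high for 90.9% of members, and heterozygous 3 for 9.09%. Among all genes tested the shares ran from 39.6% to 60.4%. RMA brings arrays to a shared distribution, which limits such shares over all genes but not over a short list. The shares ran from 3.03% to 100% for complex I subunits and from 17.0% to 81.1% for cytosolic ribosomal proteins. The 2 subunits showed the same arrays at the top and at the bottom: 44 of 48 large and 26 of 29 small subunit genes were above their median in wild type 2, and 2 of 48 and 5 of 29 in heterozygous 3.

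**Figure D3:**
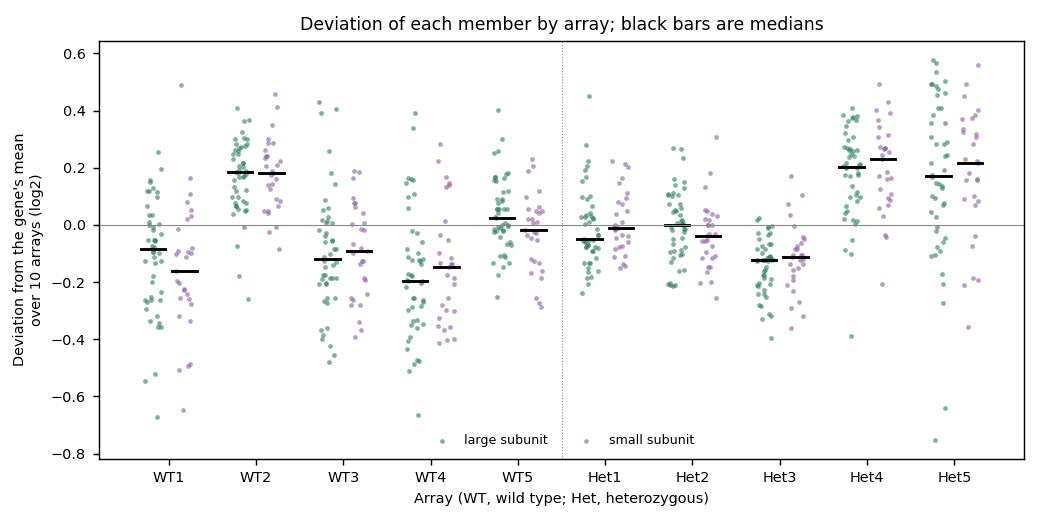
Deviation of each member from its own mean over the 10 arrays (log2), by array, large subunit in green and small subunit in purple, each point a gene and black bars the medians. The clouds sit above 0 in wild type 2, heterozygous 4 and heterozygous 5 and below 0 in wild type 1, 3 and 4 and heterozygous 3.

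The mean level of the large subunit was 8.63, 8.91, 8.65, 8.57 and 8.78 in wild type and 8.73, 8.75, 8.60, 8.93 and 8.91 in heterozygous arrays. That of the small subunit was 8.57, 8.90, 8.63, 8.58 and 8.70 in wild type and 8.73, 8.68, 8.61, 8.92 and 8.90 in heterozygous arrays. Each subunit mean had a range of 0.36 over the arrays and an SD of 0.136 within genotypes, against genotype differences of 0.073 and 0.095. The genotype difference was therefore smaller than the spread between mice of 1 genotype. The large minus small mean stayed between -0.013 and 0.088 in every array. Heterozygous 5 was the highest array for 31 members, wild type 2 for 16 and heterozygous 4 for 12. Heterozygous 5 was also the lowest array for 4 members, Mrpl1, Mrpl32, Mrpl39 and Mrpl45. Wild type 1 and wild type 4 were each the lowest for 24. Among all 14953 genes tested, the highest array was heterozygous 5 for 3452, wild type 2 for 1209 and heterozygous 4 for 1423. The lowest was heterozygous 5 for 2481, wild type 1 for 2412 and wild type 4 for 2667. Heterozygous 5 thus lay at both ends over all genes too. Taken singly, members were not unusually variable: their median range over the arrays was 0.66, against 0.76 for all genes. The difference exceeded the gene's own SD within genotypes in 15 of 77 members (19.5%), against 27.4% of all genes.

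Because 1 mouse can decide such small medians, they were recomputed without each array. The large subunit median of 0.08 was 0.042 without heterozygous 4, 0.043 without wild type 4, 0.046 without heterozygous 5, 0.12 without heterozygous 3 and 0.16 without wild type 2. The small subunit median of 0.12 was 0.061 without heterozygous 5 and 0.16 without wild type 2. The 2 members at an unadjusted p under 0.05 became 8 without wild type 2, 5 without heterozygous 1, 4 without heterozygous 3, 3 without wild type 1, 1 without heterozygous 2 or 5, and 0 without any of the remaining 4 arrays. The 8 are 10.4% of the members, against 13.6% of all genes in that fit, and in each of the 10 fits the members' share was below that of all genes. In each of these fits 0 members passed the adjusted threshold. Of all genes, 22 passed it without wild type 1, 3 without heterozygous 2 and none in the other fits.

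**Figure D4:**
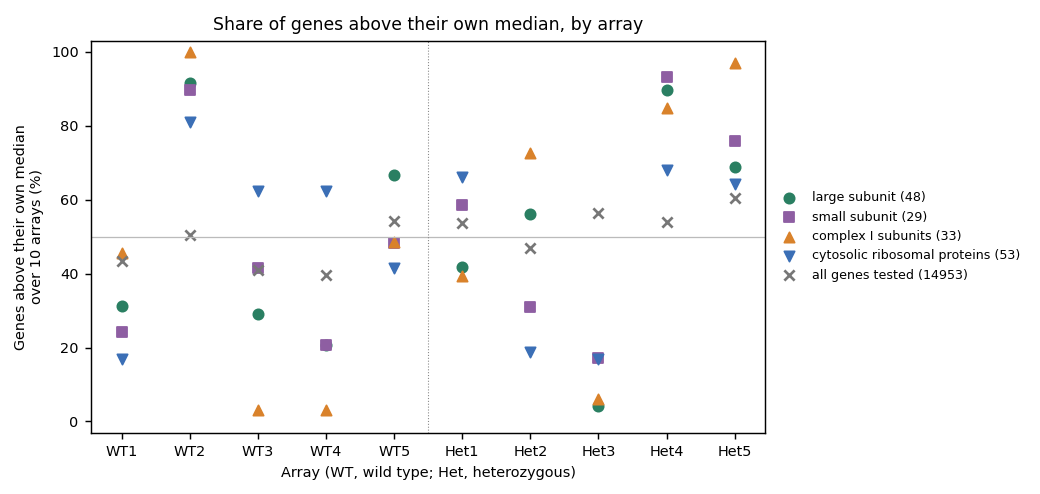
Share of genes (%) above their own median over the 10 arrays, by array, for the large and small subunit, complex I subunits, cytosolic ribosomal proteins and all genes tested. Both subunits and complex I are near the top in wild type 2 and heterozygous 4 and near the bottom in wild type 4 and heterozygous 3, while all genes stay between 39.6% and 60.4%.

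The 33 tested subunits of complex I, a complex of the respiratory chain built partly from mitochondrially translated proteins, were high and low in many of the same arrays. They were above their own median in 15, 33, 1, 1 and 16 genes in wild type 1 to 5 and in 13, 24, 2, 28 and 32 in heterozygous 1 to 5. Their median genotype difference was 0.12, with 30 of 33 higher and 0 past the adjusted threshold. At an unadjusted p under 0.05, 2 of 33 were higher, against 6.79% of all genes. The 53 cytosolic ribosomal protein genes, which form the ribosome outside the mitochondria, had a median of -0.0048 with 25 higher. By array they counted 9, 43, 33, 33 and 22 in wild type and 35, 10, 9, 36 and 34 in heterozygous, so that wild type 3 and 4 were high for them and low for the mitochondrial ribosome. Their SD within genotypes was smaller, a median of 0.0747 against 0.206 for the mitochondrial members.

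Markers of cell types also varied between the arrays. The mean of 11 B lineage markers (among them Cd79a, Pax5, Ebf1 and Vpreb1) was 10.91, 10.83, 10.97, 11.00 and 10.87 in wild type and 10.90, 10.65, 10.88, 10.64 and 10.40 in heterozygous arrays. Heterozygous 4 and 5, high for the mitochondrial ribosome, had the lowest means of these markers. Heterozygous 2, at 10.65, was level with heterozygous 4 but had only 36 of the 77 members above their median. The markers did not move together. Ptprc, the gene of the B220 antigen, was at 8.33 and 7.89 in heterozygous 4 and 5 against 9.35 to 10.07 in wild type. In these arrays Vpreb1, of the surrogate light chain, was at 12.40 and 12.47, and its partner Igll1 at 12.34 and 12.49. Both genes were there above every wild type array, Vpreb1 in heterozygous 4 only just, against 12.39 in wild type 1. By genotype, Blnk, Vpreb1 and Igll1 were higher in heterozygous cells, by 0.067, 0.16 and 0.28. The other markers were lower, from -0.11 (Cd79b) to -0.79 (Rag1). For Cd24a, at -0.19, the genotypes did not overlap, as for 2.28% of all genes. None passed the adjusted threshold in limma. In heterozygous 4, 5 of 11 markers were above their own median, and heterozygous 5 was the highest array for 2 and the lowest for 5. With the mean of the B lineage markers as a covariate, which turned the medians of both subunits below 0, 0 members and 0 of all genes were called. The mean of 16 monocyte and macrophage markers was 9.21, 7.68, 5.92, 5.76 and 5.85 in wild type and 7.32, 9.76, 7.26, 7.02 and 7.17 in heterozygous arrays. Wild type 1 and heterozygous 2, highest in these markers, had 22 and 36 of the 77 members above their median. With the macrophage mean as a covariate the medians were 0.089 and 0.12, and without both of those arrays 0.072 and 0.12. The mean of 12 neutrophil markers ran from 4.99 to 6.93 in wild type and from 5.57 to 7.73 in heterozygous arrays, and that of 5 plasmacytoid dendritic cell markers from 6.16 to 7.14 and from 6.78 to 8.29. The 5 of 9 T and NK cell markers above the filter had means of 5.41 to 5.77 in wild type and 5.93 to 6.21 in heterozygous arrays, without overlap. For 6 erythroid, 5 megakaryocyte and 5 stroma markers the means overlapped, at 5.57 to 5.98, 5.07 to 7.27 and 5.18 to 5.45 in wild type and 5.83 to 6.02, 5.34 to 7.40 and 5.42 to 5.64 in heterozygous arrays. The part of these 6 other cell types in the members' differences was not tested.

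**Figure D5:**
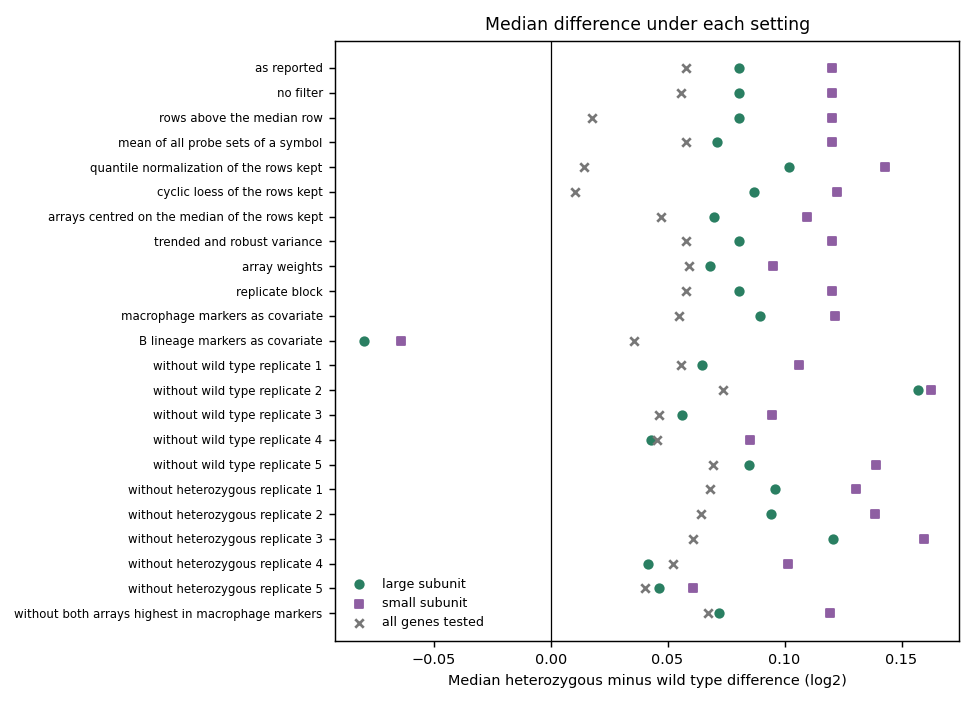
Median heterozygous minus wild type difference (log2) of the large subunit (circles), the small subunit (squares) and all genes tested (crosses) as reported and under each alternative setting. The large subunit runs from -0.08 with B lineage markers as covariate to 0.16 without wild type 2, and every other setting gives a positive median for both subunits.

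Hspa9, which checks the genotype labels, was at 9.92 in wild type and 9.18 in heterozygous cells, a difference of -0.73 (SE 0.185, exact two-sided permutation p = 0.0159, limma adjusted p = 0.345). Wild type 1, at 9.49, lay below heterozygous 1, at 9.52, so the genotypes overlapped. With the B lineage covariate the difference was -0.45 (limma adjusted p = 1.0). The sources used here do not place its probe set relative to the disrupted sequence.

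The other genes of mitochondrial gene expression were split evenly by direction. Of 68 tested genes in 5 lists, 34 were higher and 34 lower, with a median of -0.0058. None passed the adjusted threshold in limma. At an unadjusted p under 0.05, Gatb was higher and Mterf3, Mterf2 and Ptcd3 were lower, 1 and 3 of 68 against the 6.79% and 4.25% of all genes. Among 4 ribosomal subunits with other names, Gadd45gip1 of the large subunit was at 0.22 and Ptcd3, a pentatricopeptide repeat protein of the small subunit, at -0.47 (adjusted p = 0.440 in limma). Ptcd3 had 7.10, 7.00, 7.90, 7.71 and 7.49 in wild type and 7.39, 6.72, 7.01, 7.08 and 6.66 in heterozygous arrays, where wild type 1 and 2 lay within the heterozygous values.

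Of 24 factors for ribosome assembly and rRNA modification, 14 were higher and 10 lower, with a median of 0.029. Mterf3, an mTERF family protein needed for ribosome assembly, had 7.54, 7.11, 7.52, 7.57 and 7.46 in wild type and 7.22, 7.13, 7.09, 6.93 and 6.66 in heterozygous arrays. All heterozygous arrays lay below 4 of the 5 wild type arrays, with wild type 2 among them, and the difference was -0.43 (SE 0.131, adjusted p = 0.349 in limma). Mtg1, a GTPase of large subunit assembly, was at 0.21. Of 15 translation factors, 5 were higher and 10 lower, with a median of -0.14. The initiation factor Mtif2 was at -0.50 (adjusted p = 0.460 in limma) and the elongation factor Tsfm at 0.22.

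Of 19 tRNA synthetases and amidotransferase subunits, 10 were higher and 9 lower, with a median of 0.0021. Gatb, a subunit of the amidotransferase that makes glutaminyl-tRNA, had 6.01, 6.13, 6.08, 6.02 and 6.05 in wild type and 6.19, 6.19, 6.29, 6.48 and 6.26 in heterozygous arrays. Its genotypes did not overlap, which held for 1 of the 68 genes and for 2.28% of all genes, and the difference was 0.22 (SE 0.0857, adjusted p = 0.405 in limma). Iars2, the isoleucyl-tRNA synthetase, was at -0.29. Of 6 genes of mitochondrial transcription and DNA replication, 3 were higher and 3 lower. Mterf2 was at -0.52 (adjusted p = 0.373 in limma), with values of 5.81, 6.18, 6.38, 6.20 and 5.82 in wild type and 5.94, 5.66, 5.72, 5.48 and 4.97 in heterozygous arrays. Heterozygous 1 was above wild type 1 and 5, and the other 4 heterozygous arrays were below all wild type ones. Tefm, which promotes elongation by the mitochondrial RNA polymerase, was at 0.13.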

How the data were processed

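Per the labels, the authors made gene-level RMA values on the log2 scale with Affymetrix Expression Console, and these deposited log2 values were used unchanged. RMA corrects background, brings arrays to a shared distribution and summarises probes, so a shift of most genes would be largely removed. Versions, build and annotation of that step are not given in the sources used here. The 10 arrays hold 35556 probe sets with medians of 5.38 to 5.49, and their number limits the precision. Through the platform annotation, 21789 probe sets had 1 symbol, 1621 several and 12146 none listed. Mrpl53 shares its probe set with another symbol and is not a member. All 77 member symbols are current in RefSeq (GRCm38.p6), which also gave the promoter windows.

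Genes had to exceed the 25th percentile of row means (4.52), and 14953 did. The test was lmFit and eBayes of limma 3.58.1 (R 4.3.3), adjusted by Benjamini-Hochberg, with a threshold of 0.05. The script was tested on simulated data. Hspa9 was also tested by exact permutation over 252 splits.

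Named per subunit were the 5 higher and 3 lower genes of smallest p, the 2 of largest and 1 of smallest SD, members whose probe sets differ in sign, and per other list the gene of smallest p in each direction. Other genes were picked for naming with their values in view. Members and lists were chosen with earlier results of these data known. Alternatives were other filters, probe set means, normalizations, variance priors, array weights, a replicate block, marker covariates and left-out arrays.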

Additional observations from a re-analysis of the deposited data

Results flagged for a closer look

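In 72 groups of 5 arrays, the named genes in each genotype, the gap of the outermost array to its nearest neighbour was set against the whole range, with Dixon's critical share of 0.71. This marks about 1 in 20 groups by chance, and 2 were marked. Mrps9 in wild type 1 was at 8.24, with the next wild type array at 8.55, a gap of 0.724 of the range. Mterf3 in wild type 2 was at 7.11, with the next at 7.46, a gap of 0.772 of the range. Without wild type 1 the Mrps9 difference was -0.23 in place of -0.15, with 0 members and 22 of all genes called.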

How the results depend on the processing

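No member was called in any of the 22 alternative fits. The smallest adjusted p of a member over them was 0.183 in limma (Mrps6, with array weights). In that fit limma called 137 of all genes, among them Hspa9, at -0.79 with adjusted p = 0.0381. Of all genes, limma also called 22 without wild type 1 and 3 without heterozygous 2. It called 26 without both arrays highest in macrophage markers and none in the other fits. The medians of both subunits kept their direction in every fit but the one with B lineage markers as covariate, which gave -0.0799 and -0.0641. In that fit 0 small subunit members had an unadjusted p under 0.05, and 1.3% of all members, against 4.39% of all genes. Under that covariate the sign also turned for Mrpl2 (-0.0031), Mrpl1 (0.29), Mrps7 (-0.0146), Mrps22 (0.0099), Mrps27 (-0.17), Mrps31 (0.0746), Mrpl27 (-0.11), Mrpl41 (-0.0926) and Mrpl47 (-0.17); the cause was not tested. With probe sets averaged, Mrpl27 was at -0.0324 and Mrpl47 at -0.0536, since each has a second probe set of lower difference. Mrpl27 was at -0.0083 with arrays centred and at -0.0733 with array weights, and Mrps27 at -0.0831 with the macrophage covariate. Without both arrays highest in macrophage markers, Mrps15 was at -0.0051, Mrpl27 at -0.0725 and Mrpl41 at -0.016.

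Of the large subunit, 1 member had an unadjusted p under 0.05 as reported, 2 with quantile normalization, 3 with array weights, and 0 with arrays centred or without both macrophage-high arrays. Of the small subunit it was 1 as reported and 2 with cyclic loess, with array weights or with the macrophage covariate. With single arrays left out, each subunit had 0 to 4 such members. The median ran from 0.0417 to 0.16 in the large and from 0.061 to 0.16 in the small subunit. Hspa9 ran from -0.84 to -0.62, Mrpl1 from -0.27 to 0.0058, Mrps27 from -0.0605 to 0.16, Mrps15 from -0.0004 to 0.0793 and Mrpl27 from -0.0608 to 0.0434.

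The labels do not say whether arrays of the same replicate number are pairs. Deviations of same-numbered arrays correlated at -0.53, 0.21, 0.53, 0.043 and 0.31. Wild type 1 to 5 correlated best with heterozygous 2, 5, 1, 1 and 4, none of them of the same number. These correlations cannot decide whether the arrays are paired, because markers of cell types also varied between the arrays. With the replicate block, the medians stayed at 0.0805 and 0.1202. In that fit 0 large and 1 small subunit members had an unadjusted p under 0.05. This is 1.3% of the members, against 8.96% of all genes. The smallest adjusted p of a member in limma was 0.555.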
